A study of Mus musculus with 2 samples.

Results

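The genes described here are 10 markers of liver endothelium, chosen by name from a table of 35275 genes. A set of 6 marks the identity of the liver sinusoidal endothelial cell (*Stab1*, *Stab2*, *Lyve1*, *Clec4g*, *Oit3* and *Kdr*), and 4 mark capillaries and large vessels (*Vwf*, *Plvap*, *Cd34* and *Pecam1*). All 10 were measured in both libraries and all 10 passed the filter, a mean FPKM of 0.1 or more (FPKM being reads scaled to gene length and library depth). The liver sinusoid is lined by a thin endothelium with open pores and without a continuous basement membrane, which clears waste molecules from blood through scavenger and lectin receptors. In chronic liver injury this lining can lose its pores and its receptors and take up features of an ordinary capillary, a process called capillarization. The comparison asks whether the 2 sets of genes parted between livers with and without endotrophin.

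Whole liver RNA of male FVB mice was compared between S1a/Ctrl and S1a/ETP. Both groups carried Alb-Cre, Rosa26-loxP-stop-loxP-rtTA and a truncated human SREBP1a under the rat *PEPCK* promoter, which gives a fatty liver, and both ate a diet with 200 mg/kg doxycycline for 10 months. The labels give an age of 12 months. S1a/ETP mice also carried TRE-ETP, so that hepatocytes, the cells in which the albumin promoter drives Cre, made endotrophin, a peptide cut from the carboxy terminus of the collagen VI alpha3 chain. Each group was a single library made from the RNA of 3 mice together, so there was no replicate, no test between the groups was possible and no p-value is given. The depth was 19245078 reads in S1a/Ctrl and 14538808 reads in S1a/ETP, of which the 10 genes took 3931 and 3294 reads. The hepatocyte transcript *Alb* was the most abundant of 8 hepatocyte markers, at 31534 and 31035 FPKM, and all 8 were detected in both pools. In bulk liver RNA, fewer cells of a type and less RNA per cell cannot be told apart.

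A log2 ratio below compares the S1a/ETP pool with the S1a/Ctrl pool after 0.1 FPKM was added to both, and a positive value is higher in S1a/ETP. The brackets after it hold the 95% Clopper-Pearson (exact binomial) bounds from the reads per depth, without the added 0.1. The interval covers counting error only and says nothing of the spread between mice. The 16042 genes of the table that passed the filter had a median log2 ratio of 0.030. Of these genes, 6.42% were at least 2-fold higher in S1a/ETP, the size used in the study, and 6.25% at least 2-fold lower, while the counting interval lay above 0 for 22.4% and below 0 for 17.5%. Among the 10 endothelial genes none was 2-fold higher or lower, 1 had an interval above 0 (*Plvap*) and 1 an interval below 0 (*Cd34*). With 10 genes, 1 in each direction was no more than the share over all genes. Over the 7768 genes within the range of mean FPKM of the 10, from 1.31 to 20.3, the shares of intervals above and below 0 were 25.6% and 16.2%, and those of genes at least 2-fold higher and lower were 2.14% and 1.88%.

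The sinusoidal receptors had nearly the same level in both pools. *Stab1* and *Stab2* encode the stabilins, large scavenger receptors that take hyaluronan and modified proteins out of the blood, at chr14:31139013-31168641 and chr10:86841198-87008025 (mm10, both on the minus strand). *Stab1* was at 5.35 FPKM in S1a/Ctrl and 5.37 FPKM in S1a/ETP, on 823 and 625 reads, a log2 ratio of 0.0074 [−0.14, 0.16]. *Stab2* was at 3.56 and 3.76 FPKM, on 564 and 450 reads, a log2 ratio of 0.077 [−0.10, 0.26]. For both stabilins the interval held 0 and was narrow on either side of it.

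*Clec4g*, which encodes the C-type lectin LSECtin of the sinusoid (chr8:3707064-3720651, minus strand), was the most abundant of the 6. It was at 18.9 FPKM in S1a/Ctrl and 19.4 FPKM in S1a/ETP, on 524 and 407 reads, a log2 ratio of 0.040 [−0.15, 0.23]. *Kdr*, the main receptor for the endothelial growth factor VEGF-A (chr5:75932827-75978458, minus strand), was at 5.39 and 5.57 FPKM, on 615 and 480 reads, a log2 ratio of 0.046 [−0.13, 0.22]. *Kdr* is expressed by endothelium in general and marks the sinusoid less narrowly than the lectin. The intervals of both genes held 0.

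The remaining sinusoidal genes had fewer reads and lower values in S1a/ETP. *Oit3*, which encodes a secreted protein with a zona pellucida domain (chr10:59422958-59441778, minus strand), was at 4.09 and 3.75 FPKM, on 214 and 148 reads, a log2 ratio of −0.12 [−0.44, 0.18]. *Lyve1*, a hyaluronan receptor of lymphatic vessels and of the sinusoid (chr7:110850607-110862953, minus strand), was at 1.73 and 1.40 FPKM, on 87 and 53 reads, a log2 ratio of −0.29 [−0.83, 0.20]. Both intervals held 0. That of *Lyve1* was the widest of the 6, with 1.03 log2 units between its bounds against 0.30 for *Stab1*, so its value is the least precise of the set. Over the 6 sinusoidal genes the median log2 ratio was 0.024, beside 0.030 over all genes.

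**Figure D1:**
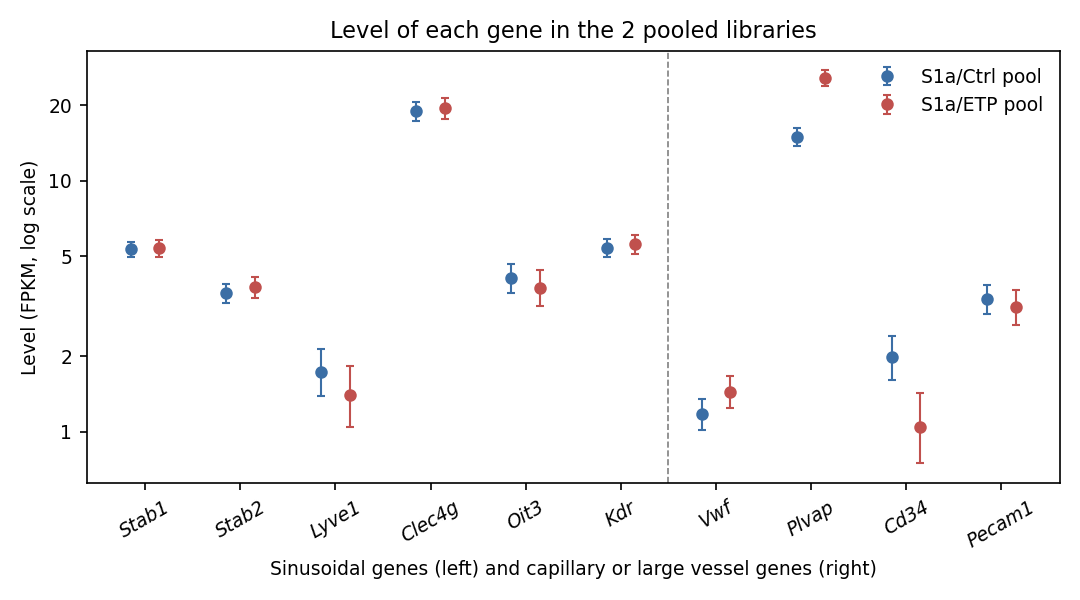
FPKM (log scale) of the 10 genes in the S1a/Ctrl pool (blue) and the S1a/ETP pool (red), 1 library each, with bars for the 95% exact Poisson interval of the reads. The points of the 6 sinusoidal genes lie within each other's bars, *Plvap* is higher at 25.6 than at 15.0 FPKM, and *Cd34* is lower at 1.05 than at 1.98 FPKM.

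The 4 capillary and large vessel genes went in different directions. *Plvap* encodes a protein of the diaphragms that span the pores and caveolae of fenestrated capillaries (chr8:71497754-71511769, minus strand), which the healthy sinusoid mostly lacks. It was at 15.0 FPKM in S1a/Ctrl, on 581 reads, and at 25.6 FPKM in S1a/ETP, on 749 reads. The log2 ratio was 0.77 [0.61, 0.93], 1.70-fold, and 96.0% of the 7768 genes of like abundance had a lower log2 ratio.

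*Cd34*, a sialomucin of capillary endothelium, blood progenitors and some fibroblasts (chr1:194938821-194961292, plus strand), was at 1.98 FPKM in S1a/Ctrl, on 100 reads, and at 1.05 FPKM in S1a/ETP, on 40 reads. The log2 ratio was −0.86 [−1.48, −0.37], 1.81-fold lower, and 2.56% of the genes within the abundance range of the 10 had a lower log2 ratio. *Cd34* lies near the lower end of that range. *Plvap* and *Cd34*, both listed as genes of capillarization, thus differed in direction between the same 2 pools. *Cd34* also rested on the fewest reads of the 10 in S1a/ETP.

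*Vwf*, the platelet-binding factor that endothelium of large vessels stores and secretes (chr6:125546774-125686679, plus strand), was at 1.18 and 1.44 FPKM, on 200 and 185 reads. Its log2 ratio was 0.27 [−0.0042, 0.59], with the lower bound just under 0. *Pecam1*, the junctional adhesion molecule CD31 shared by all endothelium, platelets and many leukocytes (chr11:106654217-106750628, minus strand), was at 3.37 and 3.14 FPKM, on 223 and 157 reads, a log2 ratio of −0.099 [−0.41, 0.20]. Neither value was separated from 0 by its counting interval.

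Over the 4 capillary and large vessel genes the median log2 ratio was 0.086, and it exceeded that of the sinusoidal genes by 0.063. The small median came from values on both sides of 0. Leaving out *Cd34* gave 0.27 and leaving out *Plvap* gave −0.099. The summed level of the 4 genes was 21.5 FPKM in S1a/Ctrl and 31.2 FPKM in S1a/ETP, while that of the 6 sinusoidal genes was 39.0 and 39.3 FPKM. The ratio of these sums was 0.551 in S1a/Ctrl and 0.794 in S1a/ETP. *Plvap* alone made up 69.7% and 82.0% of the capillary sum, and without it the ratio went the other way, from 0.167 to 0.143.

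**Figure D2:**
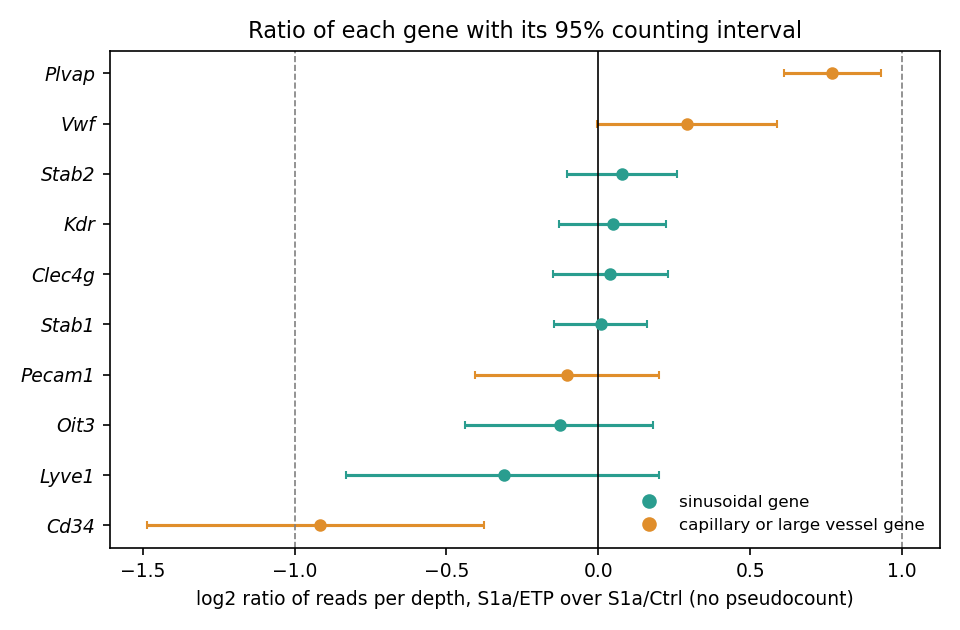
Log2 ratio of reads per depth between S1a/ETP and S1a/Ctrl for each gene, without a pseudocount, with its 95% exact binomial interval (counting error only) and dashed lines at 2-fold. The interval of *Plvap* lies above 0, that of *Cd34* below 0, and the other 8 hold 0.

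Ratios between 2 genes within a library do not depend on how the libraries are scaled to each other, and were added after the single values were seen. Their change between the pools is given as a log2 value with the 95% conditional exact interval of the 2 by 2 table of reads. Among the 15 pairs of sinusoidal genes, the change lay between −0.36 and 0.39 and all 15 intervals held 0. Thus *Stab1* stood at 1.501 times the level of *Stab2* in S1a/Ctrl and 1.43 times in S1a/ETP, a change of −0.071 [−0.31, 0.17], and *Clec4g* stood at 3.50 and 3.48 times the level of *Kdr*. The sinusoidal genes kept their proportions within counting error.

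Of the 24 pairs of a capillary gene over a sinusoidal gene, 7 intervals lay above 0 and 5 below 0, and pairs that share a gene are not independent. *Plvap* accounted for 6 of the 7, 1 for each sinusoidal gene, with changes from 0.69 to 1.08. Its level was 0.793 times that of *Clec4g* in S1a/Ctrl and 1.32 times in S1a/ETP, a change of 0.73 [0.48, 0.98]. Over *Pecam1*, *Plvap* went from 4.45 to 8.15 times, a change of 0.87 [0.53, 1.22]. The ratio of *Plvap* to the other endothelial genes was therefore higher in S1a/ETP against each of these 7 genes.

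*Cd34* accounted for all 5 intervals below 0, with changes from −0.996 to −0.61 over the 6 sinusoidal genes, and only the pair with *Lyve1*, at −0.61 [−1.38, 0.16], held 0. Over *Pecam1* the ratio of *Cd34* went from 0.589 to 0.334, a change of −0.82 [−1.46, −0.19]. *Vwf* over *Lyve1* gave the remaining interval above 0, at 0.60 [0.0063, 1.21]. None of the 6 intervals of *Pecam1* lay beyond 0. The largest change among all pairs was that of *Plvap* over *Cd34*, from 7.56 to 24.4 times, a change of 1.69 [1.12, 2.28].

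**Figure D3:**
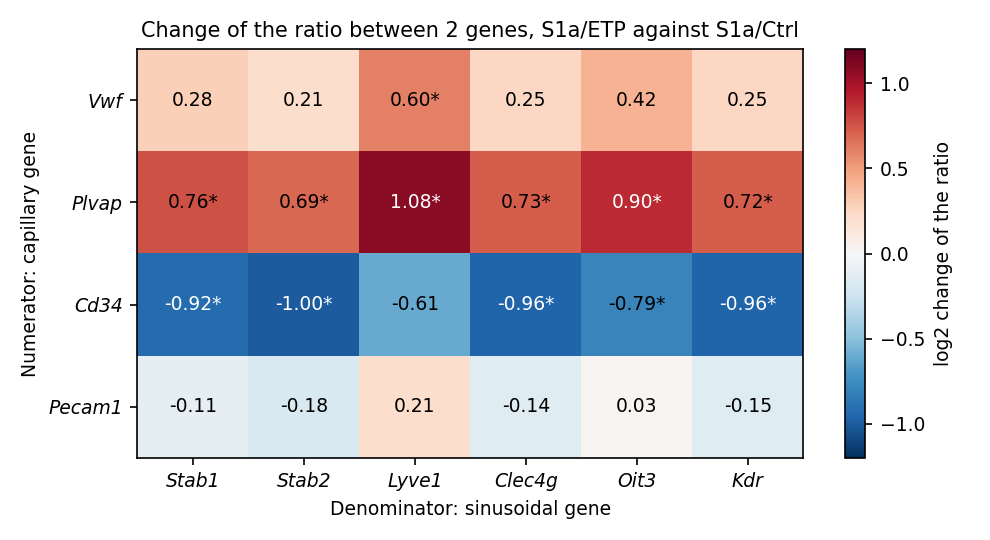
Log2 change between S1a/Ctrl and S1a/ETP in the ratio of each capillary or large vessel gene (rows) to each sinusoidal gene (columns), with an asterisk where the 95% exact interval does not hold 0. The row of *Plvap* is above 0 throughout, from 0.69 to 1.08, the row of *Cd34* is below 0 throughout, and those of *Vwf* and *Pecam1* are paler.

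Per length, the order of the 10 levels differed between the pools at the top, at the bottom and in the places of *Oit3* and *Stab2*. In S1a/Ctrl it ran *Clec4g*, *Plvap*, *Kdr*, *Stab1*, *Oit3*, *Stab2*, *Pecam1*, *Cd34*, *Lyve1* and *Vwf*. In S1a/ETP it ran *Plvap*, *Clec4g*, *Kdr*, *Stab1*, *Stab2*, *Oit3*, *Pecam1*, *Vwf*, *Lyve1* and *Cd34*. Neighbors that did not differ beyond counting error in S1a/Ctrl were *Kdr* and *Stab1*, *Oit3* and *Stab2*, *Stab2* and *Pecam1*, and *Cd34* and *Lyve1*. In S1a/ETP they were *Kdr* and *Stab1*, *Stab2* and *Oit3*, *Oit3* and *Pecam1*, *Vwf* and *Lyve1*, and *Lyve1* and *Cd34*.

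The order rests on the gene lengths of the table, which were shorter than the merged exons of GENCODE M21 for 9 of the 10 genes, *Plvap* being the exception. For *Cd34* the table has 2621 bases and the merged exons 7290, and for *Vwf* 8834 and 16064. With merged exon lengths *Plvap* came before *Clec4g* also in S1a/Ctrl, at 15.2 against 11.1 on the FPKM scale. *Oit3* then came before *Stab2* in both pools, and *Oit3* and *Kdr* exchanged places instead. *Lyve1* came before *Cd34* and *Vwf* in both pools. The exchanges of *Plvap* with *Clec4g* and of *Oit3* with *Stab2* therefore held only with the lengths of the table. Log2 ratios are free of length only without the added 0.1 FPKM. That amount weighs more at low levels, such as the 0.713 and 0.377 of *Cd34* with merged exon lengths. Exon bases were shared with a gene on the opposite strand for *Stab1* (112 bases, *Nt5dc2*), *Stab2* (141), *Clec4g* (146) and *Cd34* (148, *Gm16897*), and whether reads were counted by strand is not stated. *Plvap* shared none.

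Upstream sequences are shown for the gene with the lower value, *Cd34*, and for a lectin and a scavenger receptor whose levels were alike in both pools, as the genes whose start in the table equals that of RefSeq. They are the 250 bases before the start in GRCm38.p6, 5′ to 3′ on the strand of the gene, with the letters GGAAG or their complement CTTCC in capitals, the core bound by ETS factors, a family that includes the endothelial regulator ERG. These are chr1:194938571-194938820 (plus), chr8:3720652-3720901 (minus) and chr14:31168642-31168891 (minus).
Cd34: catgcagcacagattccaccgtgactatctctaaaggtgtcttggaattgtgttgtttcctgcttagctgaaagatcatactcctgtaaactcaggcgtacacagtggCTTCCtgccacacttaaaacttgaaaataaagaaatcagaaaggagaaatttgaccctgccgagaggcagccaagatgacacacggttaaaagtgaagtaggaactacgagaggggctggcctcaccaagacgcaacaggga
Clec4g: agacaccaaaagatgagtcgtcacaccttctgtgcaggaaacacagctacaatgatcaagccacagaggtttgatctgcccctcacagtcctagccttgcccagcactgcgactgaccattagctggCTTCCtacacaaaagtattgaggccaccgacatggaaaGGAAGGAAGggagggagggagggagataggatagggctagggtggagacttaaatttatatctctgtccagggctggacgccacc
Stab1: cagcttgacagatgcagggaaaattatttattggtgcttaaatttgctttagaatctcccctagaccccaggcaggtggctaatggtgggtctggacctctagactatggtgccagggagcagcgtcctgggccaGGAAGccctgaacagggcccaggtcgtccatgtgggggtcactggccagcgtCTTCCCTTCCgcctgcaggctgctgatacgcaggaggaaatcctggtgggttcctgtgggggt
The window of *Cd34* held 1 match, and those of *Clec4g* and *Stab1* held 3 each, in both genes with an adjoining or overlapping pair among them. Such a match is common, present in 64.1% of 32817 windows of the same length, and is a description of the letters only. GATAA or its complement TTATC is a form of the core bound by GATA factors such as the sinusoidal regulator GATA4. These letters were in none of the 5 windows at hand (*Kdr* and *Stab2* being the others) and in 22.6% of all windows. Other forms of the core, such as GATAG, were not counted, and the window of *Clec4g* holds those letters.

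Among other genes of the sinusoid and of endothelium in general, 11 of 12 and 12 of 16 had a higher value in S1a/ETP, beside 53.2% of all genes past the filter. The shares with an interval above 0 are to be read against 22.4% over all genes and 25.6% within the abundance range of the 10. Of the 12 other sinusoidal genes, 4 had an interval above 0 and none below, and the median log2 ratio was 0.19. The list is not particular to the sinusoid, since macrophages or lymphatic vessels express some of its genes, and their part was not tested. *Flt4*, the receptor for VEGF-C, was at 10.2 FPKM in S1a/Ctrl and 20.5 FPKM in S1a/ETP, on 1226 and 1862 reads, a log2 ratio of 1.0004 [0.90, 1.11], just past 2-fold. *Clec1b*, a lectin receptor also found on platelets and Kupffer cells, was at 0.39 [0.06, 0.77]. Of the 16 pan-endothelial genes, 6 had an interval above 0 and none below, with a median of 0.18. *Ecscr*, a membrane protein of migrating endothelial cells, was at 1.63 and 4.26 FPKM, on 35 and 69 reads, a log2 ratio of 1.33 [0.78, 2.01], and the junctional gene *Esam* was at 0.51 [0.15, 0.90]. *Eng*, the co-receptor endoglin, was the most abundant of them, at 0.32 [0.16, 0.50].

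*Plvap* lay above the medians of all these lists and *Cd34* below them, whereas *Stab1*, *Stab2*, *Clec4g* and *Kdr* lay between 0 and the medians of the other sinusoidal and pan-endothelial genes. Set against the pan-endothelial median, *Stab1* was at −0.17 [−0.32, −0.017] and the median of the 6 sinusoidal genes was −0.15. *Cd34* was at −1.03, past 2-fold, while *Plvap* was at 0.59. The bounds of *Stab1* take the pan-endothelial median as fixed. They leave out the error of that median, which rests on 16 genes from −0.58 to 1.33, so a difference of *Stab1* from it is not shown. Of 19 other capillary, arterial and venous genes that passed the filter, out of 21, 5 had an interval above 0 and none below, with a median of 0.044. Over all genes past the filter the share above 0 was 22.4%. Many genes of this list lie outside the abundance range of the 10. *Ly6a*, the antigen Sca-1, was at 0.59 [0.08, 1.14], and *Fabp4*, a fatty acid carrier of capillaries and adipocytes, was at 0.43 [0.19, 0.67] from 23.5 FPKM.

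The basement membrane, which a capillary has and a sinusoid mostly lacks, had the highest median of the vascular lists. Of its 11 genes, 10 had an interval above 0 and none below, with a median of 0.64. *Col4a1*, a collagen IV chain, was at 6.96 FPKM in S1a/Ctrl and 11.8 FPKM in S1a/ETP, a log2 ratio of 0.75 [0.63, 0.89], close to the 0.77 of *Plvap*. *Hspg2*, the proteoglycan perlecan, was at 0.81 [0.68, 0.99], and *Col18a1*, which hepatocytes also make, at 0.20 [0.17, 0.24]. Stellate cells and fibroblasts make these genes too, so they are not a measure of endothelium alone.

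Among ligands and receptors around *Kdr*, *Vegfa* was at 57.7 FPKM in S1a/Ctrl and 47.4 FPKM in S1a/ETP, a log2 ratio of −0.28 [−0.36, −0.21]. *Kdr* itself, its receptor, was at 0.046. Of 19 genes of the VEGF, angiopoietin, Notch and shear list past the filter, out of 21, 4 had an interval above 0 and 3 below, with a median of 0.15. *Notch1* was at 0.62 [0.39, 0.94] and the orphan receptor *Tie1*, also counted with the pan-endothelial genes, at 0.48 [0.17, 0.83]. Of 6 angiocrine genes, through which the sinusoid signals to hepatocytes, 2 had an interval above 0 and none below, with a median of 0.30. *Bmp6*, a regulator of hepcidin, was at 0.60 [0.04, 1.27]. *Clec1b*, *Ecscr*, *Eng*, *Col4a1*, *Notch1* and *Bmp6* share exon bases with another gene, so their reads are less certain.

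**Figure D4:**
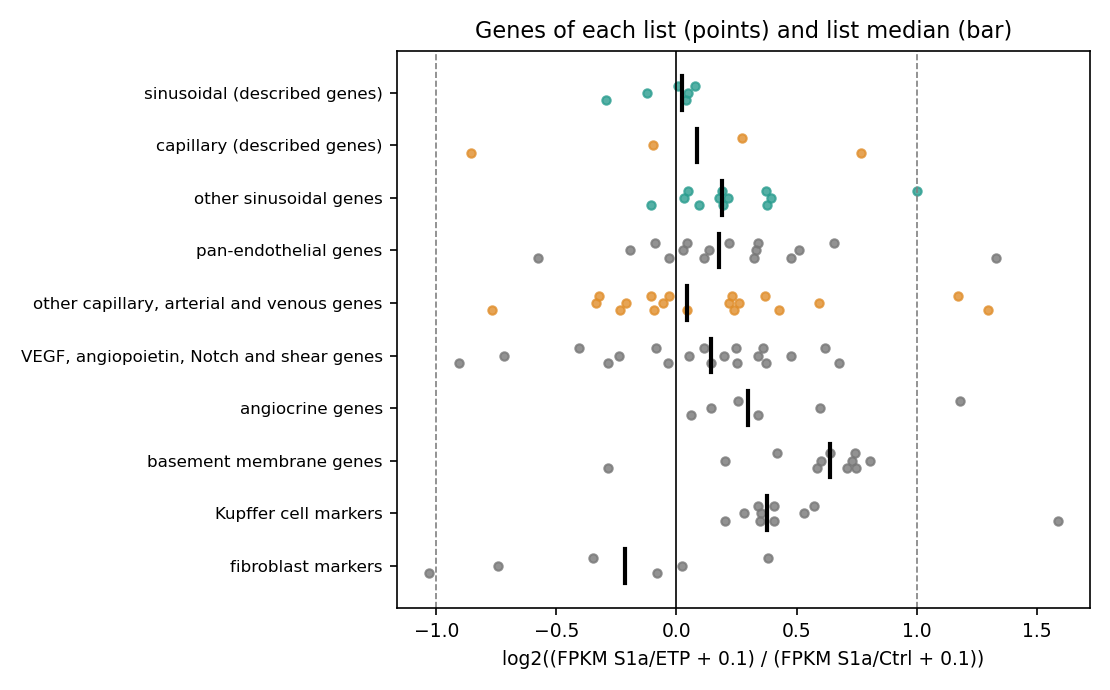
Log2 ratio of each gene past the filter (points) and the median (bars) of the 2 described sets and of 8 other lists, with dashed lines at 2-fold. The sinusoidal set is narrow around its median of 0.024, the capillary set is spread from −0.86 to 0.77, and the basement membrane list has a median of 0.64.

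Markers of other cells that express some of the 10 genes also differed between the pools, and their part in the values of *Cd34*, *Vwf*, *Pecam1*, *Kdr*, *Lyve1* and *Stab1* was not tested. Skeletal muscle markers were found almost solely in S1a/Ctrl. Their summed level was 90.4 FPKM in S1a/Ctrl and 0.462 FPKM in S1a/ETP, and all 10 markers past the filter, of 11, were at least 2-fold lower, with a median of −5.67. Of the 11, 9 had no read in S1a/ETP, *Tnnc2* having none in either pool. The markers passed the filter through S1a/Ctrl, and the size of the median was set by the added 0.1 FPKM. *Tnnt3* and *Acta1*, which encode a troponin of fast muscle and the skeletal muscle actin, had 475 and 493 reads in S1a/Ctrl and none in S1a/ETP, at least 120-fold and 124-fold lower if 3 reads are assumed for the empty library. Muscle is rich in capillaries, and reads from its endothelium cannot be told apart from those of the liver in S1a/Ctrl. This holds for *Cd34* and also for general endothelial genes such as *Kdr* and *Pecam1*, whose log2 ratios were 0.046 and −0.099.

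Fibroblast markers, another source of *Cd34*, had a summed level of 106 FPKM in S1a/Ctrl and 104 FPKM in S1a/ETP, and 2 of 6 had an interval below 0 and none above, with a median of −0.21. *Clec3b* was at −1.03 [−1.98, −0.27] and *Dpt* at −0.35 [−0.65, −0.06], while the most abundant, *Dcn*, was at 0.024 [−0.05, 0.10]. *Dcn* alone made up 92.4 and 93.9 FPKM of the sums, and 4 of the 6 markers had a lower value in S1a/ETP. Of 8 blood progenitor markers, 5 had an interval above 0 (*Mpo*, *Elane*, *Ctsg*, *Prtn3* and *Ms4a3*, which developing neutrophils also express) and none below. Their summed level was 1.81 and 13.5 FPKM and the median 2.32. Of these *Mpo*, *Elane*, *Ctsg* and *Ms4a3* had no read in S1a/Ctrl and passed the filter through S1a/ETP alone. The median therefore rests in part on the added 0.1 FPKM, and these genes say nothing of the *Cd34* value. The stem and progenitor genes *Kit* at 0.046 [−0.44, 0.54], *Gata2* at −0.027 [−1.14, 1.04] and *Flt3* at 0.53 [−0.44, 2.66] had intervals that held 0. Of 4 smooth muscle markers 1 interval lay above 0 and 1 below, at 11.4 and 13.9 FPKM in sum, with a median of −0.16. Of 5 pericyte and stellate markers past the filter, out of 6, 2 lay above and 1 below, at 68.2 and 72.5 FPKM, with a median of 0.21.

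Platelets carry *Pecam1* and *Vwf*. Their 8 markers summed to 5.002 FPKM in S1a/Ctrl and 7.45 FPKM in S1a/ETP, with 2 of 6 intervals above 0, none below and a median of 0.46. *Gp6* was at 0 in both pools, *Gp1bb* in S1a/Ctrl, and *Gp9* and *Treml1* in S1a/ETP. Kupffer cells and other macrophages can carry *Stab1* and *Lyve1*, and 8 of 10 Kupffer markers had an interval above 0 and none below, at 182 and 235 FPKM in sum, with a median of 0.38 and *C1qa* at 0.41 [0.27, 0.55]. The log2 ratio of *Stab1*, 0.0074, lay below the lowest Kupffer value of 0.20. Of 6 lymphatic markers, *Flt4* alone had an interval above 0 and none lay below, the sum was 27.2 and 36.7 FPKM and the median −0.040. *Flt4*, also counted with the other sinusoidal genes, made up 10.2 and 20.5 FPKM of these sums. A lower value in S1a/ETP was found for 4 of the 6, among them *Ccl21a* at −0.67 [−1.98, 0.41]. Of the 8 hepatocyte markers, 2 intervals lay above 0 and 6 below, at 51914 and 46635 FPKM in sum, with a median of −0.29. Their intervals are narrow because their reads are many, and *Alb* counted as below 0 at −0.023 [−0.027, −0.019]. These 2 counts are therefore not comparable with those of the other lists or of all genes.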

How the data were processed

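Novogene sequenced liver RNA, 1 library of 3 pooled mice for each of S1a/Ctrl and S1a/ETP. The authors deposited FPKM values for 35275 genes with gene length. Per the labels, mm10, STAR, StringTie 1.3.3b, HTSeq 0.6.1 and edgeR 3.16.5 were among the builds and tools, without the step each served. Annotation release, read filters and strandedness: not given in the sources used here.

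Each FPKM value times length and depth was a whole number of reads (100% of values above 0, within 0.01 reads). Groups came from the sample labels. No test was run, since 1 library per group gives no spread. Intervals of 95% and the floor of 3 reads cover counting error only. The 10 genes and the 15 other lists of 151 genes were chosen with earlier results of these data known. Of the listed genes 2 were matched by ID under an older symbol and none was unmatched. The rule for names took, per other list, the most abundant gene and the 2 with the largest ratio, all at a mean FPKM of 1 or more, and the text leaves some of them out. Other names are marker genes at 0, blood progenitor genes or genes that share exon bases, named after their values were seen. Alternatives were pseudocounts of 1 and 0.01 FPKM, no filter or one of 1 FPKM, 4 scalings and an interval of 99%. Promoter windows come from RefSeq (GRCm38.p6), which held 5 of the 10 genes, and exons from GENCODE M21, also GRCm38. The steps were tested on simulated libraries. Python 3.11.15, numpy 2.4.6, pandas 2.3.3, scipy 1.17.1 and matplotlib 3.10.9 were used.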

Additional observations from a re-analysis of the deposited data

How the results depend on the processing

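The alternatives to scaling shifted all log2 ratios by −0.029 (median of genes at a mean FPKM of 1 or more set to 0), 0.072 (TPM), 0.031 (FPKM total without the 100 most abundant genes) and −0.18 (median of the pan-endothelial list set to 0). With the last, the median of the sinusoidal genes was −0.15 in place of 0.024, and 1 gene in place of none was past 2-fold. The intervals of 3 genes in place of 2 lay beyond 0, *Stab1* being added, by the construction of that setting. These intervals leave out the error of the pan-endothelial median. That setting also moved *Stab1* to −0.17, *Kdr* to −0.13 and *Plvap* to 0.59, outside their intervals. Over 7 alternatives each, *Plvap* stayed between 0.59 and 0.84 and *Cd34* between −1.03 and −0.54. The log2 change in the ratio of the capillary sum to the sinusoidal sum was 0.53, and −0.22 without *Plvap*, an alternative chosen after seeing the data, as were leaving out other single genes, taking no pseudocount and merged exon lengths. The remaining log2 values moved by less than their counting intervals, and the remaining counts did not change. No paired analysis was possible because each group has 1 library, and for the same reason no replicate could be left out. Depth limited *Lyve1* and *Cd34* most, and the spread among the pooled mice is not known.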
